A study of Danio rerio with 26 samples.

Results

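The genes described here are those whose transcript level was highest in stage III among zebrafish oocytes of stages II, III and IV. A gene was taken when its mean over the 2 stage III libraries was at least 5 TPM and when that mean plus 1 was at least 2.5 times the mean plus 1 of stage II and at least 2.5 times that of stage IV. TPM is a transcript's share of a library, scaled to a fixed total, so it says nothing of the amount of RNA in a cell. Of 32520 genes in the oocyte table, 10292 reached 5 TPM in stage III, and 39 of these (0.379%) met the rule. Stages II, III and IV chose the genes, so their values are a description with no test. Stage I, the embryos and the knockdown libraries were not used in the choice.

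RNA sequencing libraries had been made from 3 sets of zebrafish samples, 26 libraries in all, those of oocytes and embryos after removal of ribosomal RNA, and each library carries the genotype label AB, TF and TLF. The oocyte set held stages I, II, III and IV, with 2 libraries a stage and 50 pooled oocytes a library. Females had been purged of mature eggs by mating, and stages I and II were taken 1 to 2 days later with a pair of collagenases, stage III 4 to 7 days later with the first of these enzymes alone, and stage IV 8 to 10 days later by hand with forceps and needle and no enzyme. Stage III was recognised by a germinal vesicle, the oocyte nucleus, in the middle of the cell, and stage IV by one lying to the side. Stages I and II thus shared their days of collection and way of isolation. From stage II to III and from III to IV both changed together with stage and cannot be told apart from it. The embryo set followed whole embryos with no treatment in their labels over 4 times, 0, 2, 4 and 6 hours after fertilisation (hpf), with 3 libraries a time and 20 pooled embryos a library. The knockdown set compared embryos of 4 hpf that carry the label znf281b KD with others labelled pCas13d alone, 3 libraries each. Cas13d is a nuclease that cuts RNA at sites set by a guide, and znf281b encodes a zinc finger protein.

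A growing fish oocyte sits in a follicle of granulosa cells and an outer layer of theca cells. In stage III it takes up yolk protein that the liver makes under the control of estradiol, and the follicle supplies that estradiol through aromatase, the product of cyp19a1a. In stage IV the follicle turns to making the progestin that starts maturation, and the oocyte stops growing. Egg transcripts are loaded during oocyte growth and carry the embryo until its own genome is switched on.

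All 8 oocyte libraries held oocyte transcripts at high level. The summed TPM of 11 oocyte markers (such as the egg envelope genes zp3b and zp2.1) lay between 10016 and 14252 in the 6 libraries of stages I to III and was 5264 and 7219 in stage IV. Somatic markers were present too and were not even across stages. The summed TPM of 12 granulosa markers was 10.1 and 16.6 in stage I, 29.6 and 47.2 in stage II, 334 and 223 in stage III, and 346 and 381 in stage IV. Markers of stroma (123 and 108 TPM summed in stage III, 154 and 279 in stage IV) and of red blood cells (87.9 and 41.81 in stage III, 215 and 1071 in stage IV) were highest in stage IV. These are bulk libraries, in which fewer cells of a type and less RNA per cell cannot be told apart. Libraries of 1 stage correlated across genes at Pearson's r between 0.976 and 0.992 on log2(TPM + 1), a measure over genes, which are no independent replicates.

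The 39 genes ranged from 5.10 to 1485 TPM in mean stage III level, with a median of 14.04 TPM, against a median of 29.9 TPM for all 10292 genes past 5 TPM. Their summed level was 2392 and 580 TPM in the stage I libraries, 278 and 421 TPM in stage II, 5120 and 4481 TPM in stage III, and 204 and 434 TPM in stage IV. The 4 most abundant genes, MFAP4, zgc:172218, si:dkeyp-20e4.8 and AL929032.1, made up 80.9% and 83.1% of that sum in the 2 stage III libraries. Of the 39 genes, 18 have only a clone, contig or project name. RefSeq entries matched 24 of them by symbol or synonym, of which 21 are protein coding, 2 are long non-coding RNAs and 1 is of another RNA type.

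The genes fell into 3 groups by which libraries held the stage III level. In 31 genes both stage III libraries were above all 4 libraries of stages II and IV. The rule chose the genes on the means of these same libraries, so this count too is a description. Its share over all genes past 5 TPM was not computed. Of the 31 genes, 17 were at least 2.5 times lower in stage I than in stage III (on means plus 1), so that stage III stood above every other stage mean. The other 14 were within 2.5 times of stage III, or higher, in mean stage I level. In 12 of these 14 both stage I libraries were above both stage II libraries, and the exceptions were FP236157.2 and map7d2b. The rule and this split already put their stage I mean above that of stage II, so this count is a description. The groups are called low and also high in stage I by these means, although single stage I libraries differ from their mean for some genes. In the remaining 8 genes the level rested on 1 stage III library, and the other was not above all 4 libraries of stages II and IV. With each stage III library taken alone, 22 genes met the rule with both, 9 only with library 1 and 8 only with library 2.

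**Figure D1:**
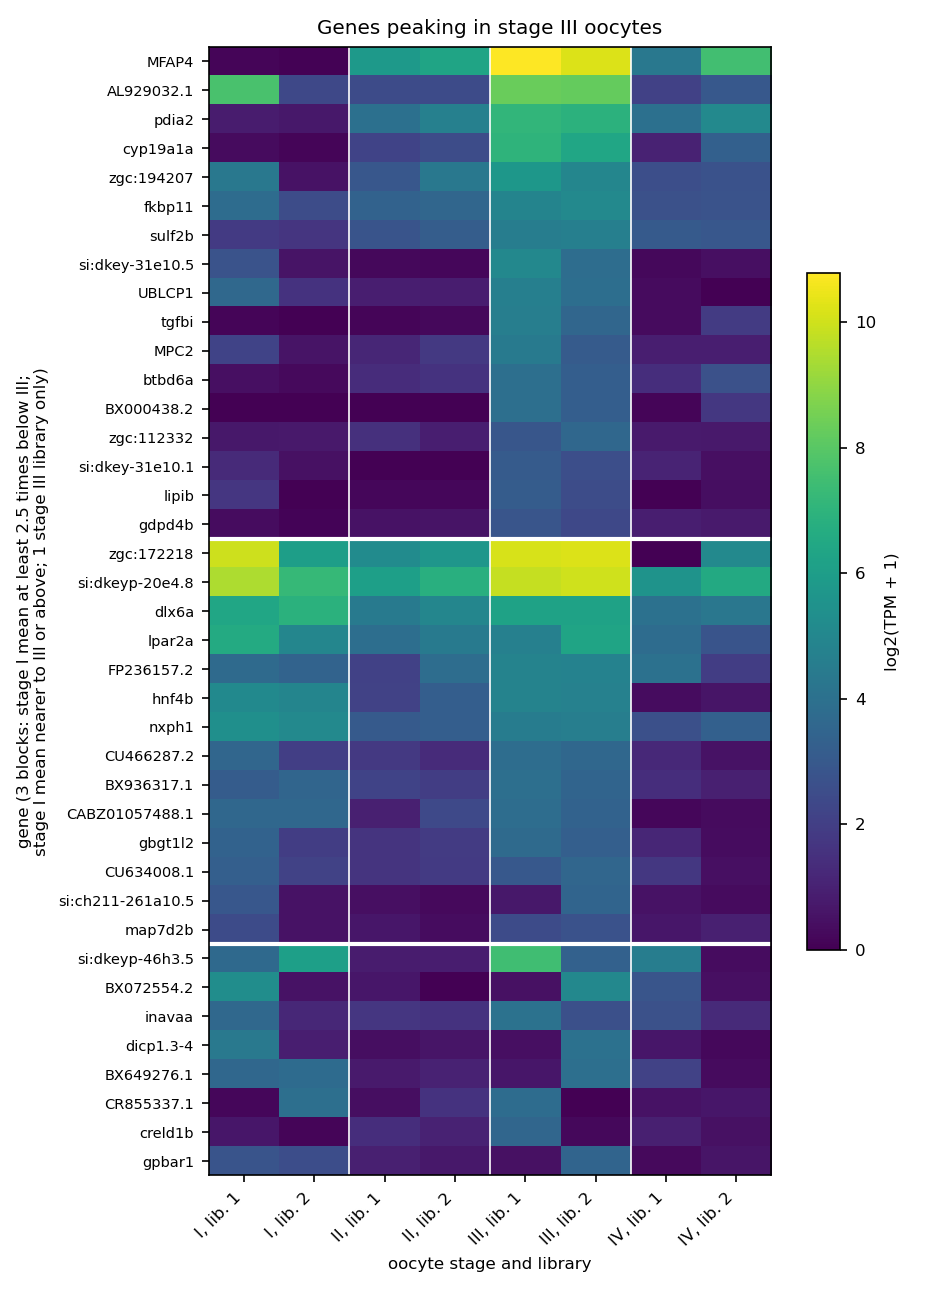
Level of the 39 genes (rows) in each of the 8 oocyte libraries (columns, stages I to IV), as log2(TPM + 1) by colour. The 17 genes of the upper block had a stage I mean at least 2.5 times below that of stage III (means plus 1), though AL929032.1 reached 205 TPM in stage I library 1. The 14 of the middle block had a stage I mean nearer to stage III or above it, though si:ch211-261a10.5 had 0.61 and 10.3 TPM in stage III. In the 8 of the lower block, 1 of the 2 stage III libraries was not above all 4 libraries of stages II and IV.

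Closest to the limit inside were inavaa, nxph1 and btbd6a, whose smaller ratio (stage III over stage II or IV, means plus 1) was 2.62, 2.68 and 2.69. Just outside were si:dkeyp-98a7.7 at 2.48, stmn4 at 2.47 and BX649641.1 at 2.41. By level, gdpd4b, map7d2b and gpbar1 were just inside at 5.10, 5.13 and 5.28 TPM in stage III, and c2cd4a, BX927388.1 and ccnd1 were just outside, with c2cd4a the nearest at 4.24 TPM.

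Among the genes low in stage I, the one with the clearest known role in the follicle was cyp19a1a (ENSDARG00000041348), which encodes ovarian aromatase, the enzyme that turns androgens into estrogens. Its level was 0.25 and 0.12 TPM in stage I, 3.52 and 4.68 TPM in stage II, 127 and 82.8 TPM in stage III, and 1.07 and 9.01 TPM in stage IV. Both stage III libraries lay far above the other 6, and the stage III mean of 105 ± 31.2 TPM (SD, n = 2) gave ratios of 20.7 over stage II and 17.5 over stage IV. Of 39 genes of steroid synthesis and hormone reception, cyp19a1a alone met the rule, and 20 of the 39 reached 5 TPM in stage III. Of those 20, 14 had a higher mean in stage III than in stage II and 6 a higher mean in stage III than in stage IV, and 5 had both. Among all 10292 genes past 5 TPM the same counts were 3101, 6159 and 1365.

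The neighbours of cyp19a1a in the estrogen pathway differed in their course after stage III. hsd17b1, whose enzyme makes estradiol from estrone, held 1.80 and 2.72 TPM in stage I, 4.26 and 8.27 TPM in stage II, 62.9 and 46.2 TPM in stage III, and 23.1 and 42.9 TPM in stage IV. It shared the step up at stage III but kept much of its level in stage IV, with the lower stage III library close to the higher stage IV library. nr5a1a, which encodes a steroidogenic nuclear receptor known to drive aromatase genes in vertebrates, had 39.2 and 18.7 TPM in stage III against 0.22 and 0.24 TPM in stage II, and reached 61.2 and 70.12 TPM in stage IV. The gonadotropin receptor gene fshr held 2.71 and 2.90 TPM in stage III and 3.97 and 9.83 TPM in stage IV.

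Other genes of this list were higher in stage IV than in stage III. hsd17b3, a steroid dehydrogenase gene, had 2.44 and 1.61 TPM in stage III and 202 and 108 TPM in stage IV. hsd3b1, whose enzyme makes progesterone from pregnenolone, had 6.90 and 6.34 TPM in stage III and 87.4 and 75.8 TPM in stage IV. The receptor genes lhcgr (0.39 and 0.26 TPM) and pgr (4.26 and 4.33 TPM) were low in stage III and held 31.6 and 42.4 TPM, and 69.7 and 56.6 TPM, in stage IV. In all, 12 of the 39 genes of this list were at least 2.5 times higher in stage IV than in stage III on means plus 1. Among the 20 past 5 TPM in stage III there were 4, against 2.497% of all 10292 genes past 5 TPM. cyp11a1, whose enzyme makes pregnenolone from cholesterol, lay between 240 and 282 TPM in the 6 libraries of stages I to III and at 655 and 547 TPM in stage IV. cyp19a1a was thus lower in stage IV than in stage III where these genes were higher. The sum over the 12 granulosa markers includes cyp19a1a itself. Without it, the other 11 summed to 207 and 140 TPM in stage III and 345 and 372 TPM in stage IV, of which the inhibin gene inha made up 22.6 and 12.02 TPM in stage III and 173 and 172 TPM in stage IV. Those markers did not move as one: cx43, a gap junction gene, had 54.4 and 42.1 TPM in stage III and 34.48 and 15.2 TPM in stage IV, and gsdf, a TGF-beta family gene of granulosa cells, had 12.4 and 12.1 TPM in stage III and 2.5 and 6.01 TPM in stage IV. The share of granulosa cells in each library was not measured, and its part in these levels was not tested.

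**Figure D2:**
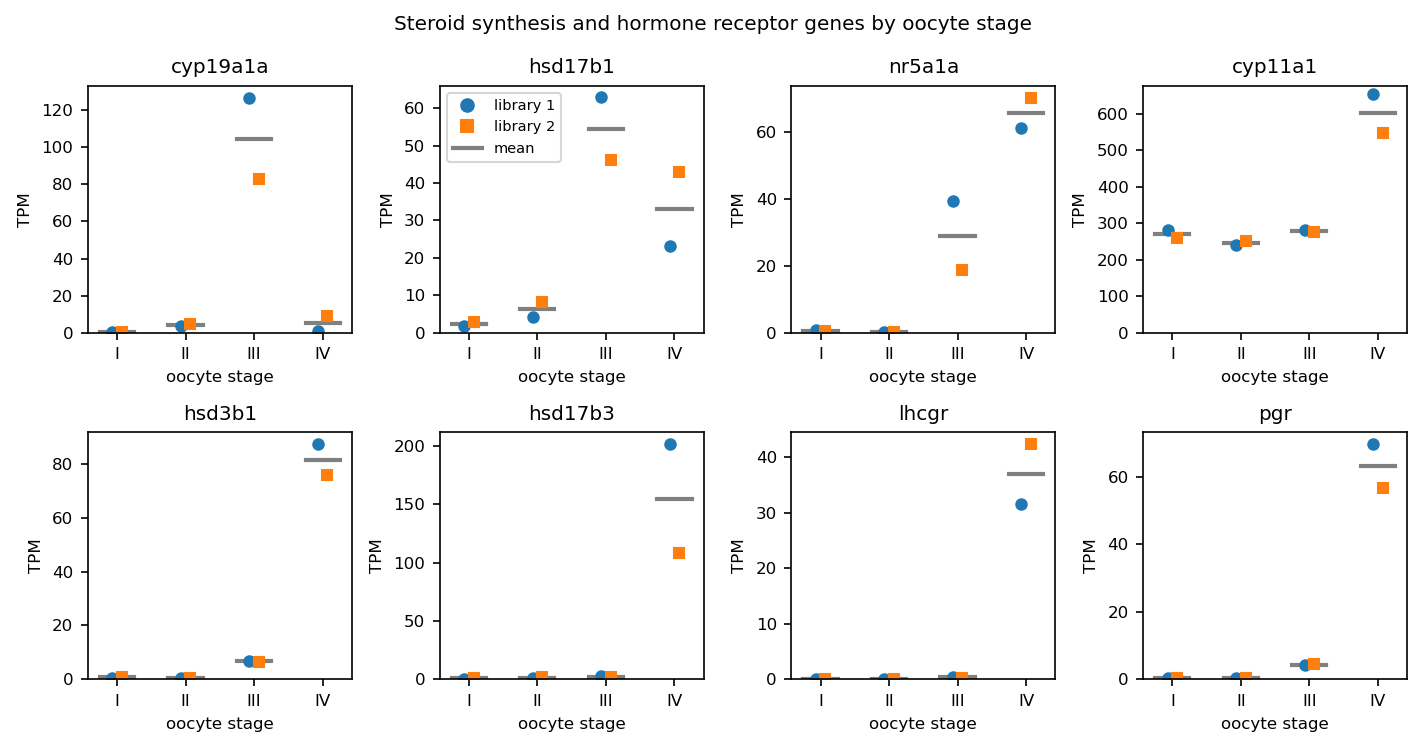
Level (TPM, linear axes) of 8 steroid pathway genes in each oocyte library by stage, with library 1 as circles, library 2 as squares and the mean as a grey bar; the 8 were picked from the list of 39 after their values were seen. Of the 8, only cyp19a1a was high in stage III (127 and 82.8 TPM) and back near its stage II level in stage IV. hsd17b1 had a lower mean in stage IV than in stage III, and the other 6 were highest in stage IV.

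The most abundant of the 39 genes was MFAP4 (ENSDARG00000111491), a fibrinogen-related gene of a family in which zebrafish mfap4 marks macrophages. It had 0.12 and 0.04 TPM in stage I, 55.8 and 77.8 TPM in stage II, 1767 and 1203 TPM in stage III, and 19.0 and 184 TPM in stage IV. The same symbol belongs to 7 identifiers, and reads can be split between near-identical copies, so this single value is uncertain. A second copy (ENSDARG00000116066) had 1.00 and 2.72 TPM in stage I, 85.8 and 119 TPM in stage II, 7379 and 4610 TPM in stage III, and 8648 and 16503 TPM in stage IV, so it did not peak in stage III. Summed over the 7 copies, the level was 9146 and 5814 TPM in stage III and 8679 and 16691 TPM in stage IV. The other 12 leukocyte markers summed to 10.3 and 19.4 TPM in stage I, 12.7 and 15.2 TPM in stage II, 38.8 and 30.4 TPM in stage III, and 186 and 169 TPM in stage IV. Most of the stage III sum was that of cd74a (18.4 and 12.9 TPM) and cd74b (12.7 and 11.0 TPM), which encode the invariant chain of antigen presentation and averaged 3.34 and 2.67 TPM in stage II. In stage III, lcp1 was at 0.99 TPM in both libraries and ptprc, which marks all leukocytes, at 0.87 and 0.51 TPM. There the macrophage marker mpeg1.1 had 0.06 and 0.03 TPM and the neutrophil marker mpx 0.00 and 0.02 TPM. Of the others, coro1a had 2.92 and 2.22 TPM there, and lyz 1.69 and 2.03 TPM, below its 5.91 and 5.26 TPM in stage II. The gene with the symbol mfap4 itself, in neither sum, had 0.16 and 1.24 TPM in stage II. It had 1.41 and 5.36 TPM in stage III and 8.2 and 4.23 TPM in stage IV. The part of leukocytes in the level of MFAP4 was not tested. Both abundant copies were above the sum of those 12 markers in stage III, and the peak of the first held for that copy and not for the sum.

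Among the genes low in stage I were also tgfbi and sulf2b, whose products act in the extracellular matrix. tgfbi, which encodes a matrix protein induced by TGF-beta, had 0.11 and 0.02 TPM in stage I, 0.11 and 0.17 TPM in stage II, 23.8 and 10.9 TPM in stage III, and 0.24 and 2.65 TPM in stage IV. It was near 0 before stage III, and both stage III libraries were above the other 6. sulf2b, which encodes an extracellular sulfatase that trims heparan sulfate, was more graded, with 2.56 and 2.14 TPM in stage I, 5.97 and 8.03 TPM in stage II, 22.6 and 24.3 TPM in stage III, and 7.27 and 6.63 TPM in stage IV. Its relative sulf2a (3.96 and 4.03 TPM in stage III) showed no such peak. The relative sulf1 had 17.7 and 15.7 TPM in stage II, 18.1 and 19.6 TPM in stage III, and 2.68 and 4.88 TPM in stage IV. It was thus also lower in stage IV than in stage III, but had little rise from stage II.

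Folding enzymes of the secretory pathway were represented by pdia2 and fkbp11. pdia2, which encodes a protein disulfide isomerase, had 0.79 and 0.64 TPM in stage I, 14.8 and 25.3 TPM in stage II, 136 and 121 TPM in stage III, and 14.7 and 32.5 TPM in stage IV. The 2 stage III libraries were close to each other (128 ± 10.3 TPM, SD, n = 2) and well above all others. pdia2 was the single member among 34 endoplasmic reticulum chaperone and secretion genes, of which 31 reached 5 TPM in stage III and 6 had a higher mean there than in stage II. Its relatives pdia3 (316 TPM), pdia4 (545 TPM) and pdia6 (250 TPM in mean stage III) were more abundant and were higher in stage II, at 434, 932 and 455 TPM.

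fkbp11, which encodes a proline isomerase of the endoplasmic reticulum, had 13.0 and 4.63 TPM in stage I, 9.64 and 10.9 TPM in stage II, 27.8 and 32.5 TPM in stage III, and 5.39 and 5.77 TPM in stage IV. The neighbouring gene in the RefSeq annotation of another assembly, sox21a, had 11.2 and 10.1 TPM in stage III, 3.94 and 6.45 TPM in stage II, and 7.66 and 2.16 TPM in stage IV. Among 72 measured non-member genes within 3 places of a member, sox21a was the only one whose stage III mean plus 1 was at least 1.5 times the means plus 1 of stages II and IV. Of those 72 genes, 34 had a mean of at least 5 TPM in stage III.

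Several members had a relative of similar name that was present in all 8 oocyte libraries and did not meet the rule. UBLCP1 (ENSDARG00000103225), named for a nuclear phosphatase that acts on the proteasome, had 11.5 and 1.98 TPM in stage I, 0.89 and 0.83 TPM in stage II, 23.9 and 13.8 TPM in stage III, and 0.23 and 0.00 TPM in stage IV. The separate gene ublcp1 lay between 47.2 and 84.9 TPM in all 8 libraries and was lower in stage III (48.9 and 58.4 TPM) than in stage II (84.9 and 79.8 TPM). MPC2 (ENSDARG00000037679), which carries the symbol of a subunit of the mitochondrial pyruvate carrier, had 20.6 and 7.44 TPM in stage III against 1.21 and 2.49 TPM in stage II and 0.87 and 0.85 TPM in stage IV. The gene mpc2 held 48.0 to 65.6 TPM in every oocyte library. Its stage III libraries (60.65 and 65.62 TPM) were slightly above all others, of which the highest had 59.92 TPM. The same contrast was seen between lipib, a phospholipase-like gene (7.70 and 4.68 TPM in stage III, at most 0.32 TPM in stages II and IV), and lipia (47.06 to 57.2 TPM throughout). These relatives were chosen by name after values had been seen.

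A pair of genes low in stage I, of no named role, stand beside MPC2. si:dkey-31e10.5 had 32.0 and 13.6 TPM in stage III and at most 0.34 TPM in stages II and IV, and si:dkey-31e10.1 had 7.59 and 4.95 TPM in stage III and at most 1.13 TPM there. They are adjacent in that RefSeq annotation, with 1 gene between si:dkey-31e10.5 and MPC2. All 3 were higher in stage III library 1 than in library 2, as were 14 of the 17 genes of this group, among them cyp19a1a and tgfbi. The same held for 6 of the 14 genes also high in stage I and 4 of the 8 resting on 1 library. Its share over all genes was not computed. The summed granulosa (207 and 140 TPM without cyp19a1a), stroma and red blood cell markers were higher in library 1 of stage III as well. So were leukocyte markers without the MFAP4 copies (38.8 and 30.4 TPM) and liver markers (33.65 and 10.66 TPM). Theca markers (377 and 379 TPM) and endothelium markers (9.40 and 9.21 TPM) were about even. The part of such cells in the levels of these genes was not tested. The other neighbouring pair was lipib and map7d2b, with 1 gene between them.

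btbd6a, whose product is an adaptor of a cullin ubiquitin ligase, had 14.2 and 8.33 TPM in stage III, against 1.56 and 1.95 TPM in stage II and 1.68 and 5.46 TPM in stage IV. The relative btbd6b was lower in stage III than in stage II, with 23.8 and 18.4 TPM in stage III against 38.7 and 44.3 TPM in stage II. BX000438.2 was listed at 0 TPM in all 4 libraries of stages I and II and had 14.2 and 8.32 TPM in stage III, with 0.11 and 2.37 TPM in stage IV. The remaining genes of the group (zgc:194207, zgc:112332 and gdpd4b, a glycerophosphodiester phosphodiesterase gene) had stage III means of 40.4, 8.85 and 5.10 TPM.

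**Figure D3:**
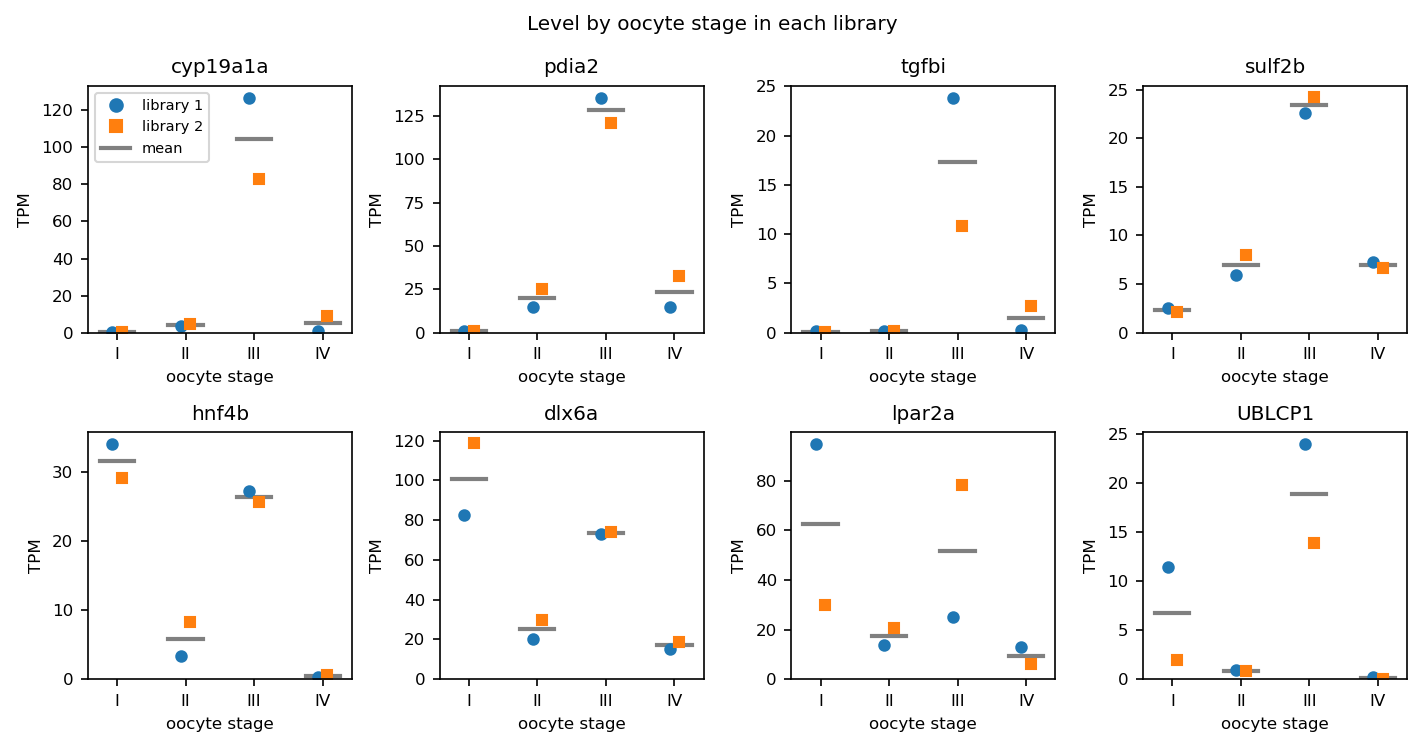
Level (TPM, linear axes from 0) of 8 of the genes in each oocyte library, with library 1 as circles, library 2 as squares and the stage mean as a grey bar. cyp19a1a, pdia2, tgfbi and sulf2b were low in stage I, whereas hnf4b and dlx6a were as high or higher there (34.0 and 29.1 TPM, and 82.6 and 119 TPM); the 2 libraries of stage III differed most for lpar2a.

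Among the 14 genes also high in stage I were 2 for transcription factors, hnf4b and dlx6a. hnf4b (ENSDARG00000104742) encodes a nuclear receptor of the HNF4 family, known for control of metabolic genes in liver and gut. Its level was 34.0 and 29.1 TPM in stage I, 3.36 and 8.21 TPM in stage II, 27.2 and 25.6 TPM in stage III, and 0.28 and 0.54 TPM in stage IV. Stages I and III did not overlap with stages II and IV in any library, so the measured level alternated from stage to stage. The rule itself chose a stage III level above those of stages II and IV. Way of isolation changed from stage II to III and from III to IV, but was shared by stages I and II. hnf4a was at 0.00 TPM in the 6 libraries of stages I to III and hnf4g at no more than 0.67 TPM in the 8 libraries. Of 26 measured genes for liver-type nuclear factors, hnf4b alone met the rule.

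dlx6a, a distal-less homeobox gene, had 82.6 and 119 TPM in stage I, 20.2 and 29.9 TPM in stage II, 73.0 and 73.9 TPM in stage III, and 15.3 and 18.5 TPM in stage IV. Its usual genomic partner dlx5a stayed at or under 0.16 TPM in all 8 libraries. nxph1, which encodes a secreted ligand of neurexins, followed the same order, with 41.0 and 32.3 TPM in stage I, 7.39 and 8.40 TPM in stage II, 22.2 and 23.6 TPM in stage III, and 5.28 and 8.79 TPM in stage IV. The relatives nxph2a, nxph2b and nxph3 had no more than 0.26 TPM in the 8 oocyte libraries.

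lpar2a, which encodes a receptor for lysophosphatidic acid, had 95.1 and 29.7 TPM in stage I, 13.8 and 20.7 TPM in stage II, 25.3 and 78.4 TPM in stage III, and 13.0 and 5.96 TPM in stage IV. The lower stage III library was just above the higher stage II library, so the height of this peak rests largely on library 2. Its relative lpar2b held between 42.3 and 92.9 TPM in the 8 libraries, with 62.9 and 54.5 TPM in stage III and 76.2 and 66.6 TPM in stage II. gbgt1l2, a glycosyltransferase gene, had 12.4 and 8.65 TPM in stage III, 2.08 and 2.66 TPM in stage II, and 1.23 and 0.28 TPM in stage IV, while gbgt1l1 lay between 57.5 and 82.6 TPM throughout. gbgt1l4 was also highest in stage III on its mean, at 10.9 and 14.2 TPM in stage I, 4.6 and 9.77 TPM in stage II, 14.5 and 13.8 TPM in stage III, and 11.6 and 6.95 TPM in stage IV, so both stage III libraries were above those of stages II and IV.

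The remaining genes of this group have mostly clone or contig names. FP236157.2 had 27.1 and 26.5 TPM in stage III, 3.26 and 13.6 TPM in stage II, and 15.2 and 2.92 TPM in stage IV. CABZ01057488.1 had 11.1 and 11.3 TPM in stage I, 0.93 and 4.24 TPM in stage II, 13.4 and 9.62 TPM in stage III, and 0.14 and 0.24 TPM in stage IV, an alternation like that of hnf4b in which stages I and III did not overlap with stages II and IV. BX936317.1 had the same separation, with 14.4 and 10.2 TPM in stage III and 7.83 and 10.3 TPM in stage I, against at most 3.55 TPM in stages II and IV. CU466287.2 and CU634008.1 had stage III means of 12.3 and 8.87 TPM. map7d2b, a gene for a microtubule-associated protein, had 4.59 and 5.66 TPM in stage III. si:ch211-261a10.5 had 0.61 and 10.3 TPM there, so its mean rests on library 2.

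Stage I was not part of the rule and gives a partial view of whether these genes were on early. Of the 39 genes, 18 were at least 2.5 times higher in stage I than in stage II (means plus 1), against 77 (0.748%) of the 10292 genes past 5 TPM; the rule itself fixes a low stage II. In 9 genes the stage I mean exceeded the stage III mean. The 2 stage I libraries did not agree for many members. A difference of at least 2.5 times between them, on TPM plus 1, was found in 18 of the 39 genes (46.2%) and in 3.25% of the genes past 5 TPM, and library 1 was the higher in 16 of the 18. In stage III such a difference was found in 11 members (28.2%), against 1.33% of the genes past 5 TPM, and a rule on the mean of 2 libraries takes in genes that are high in 1. These shares were not matched for level. The members' median was 6.47 TPM in stage I and 14.04 TPM in stage III, against 32.55 and 29.9 TPM.

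Of the abundant members, 3 showed this spread together, and they were singled out after their values were seen. zgc:172218 had 1001 and 64.2 TPM in stage I, 36.0 and 50.5 TPM in stage II, 1132 and 1208 TPM in stage III, and 0.00 and 33.2 TPM in stage IV. si:dkeyp-20e4.8, a long non-coding RNA gene in RefSeq, had 701 and 147 TPM in stage I, 67.0 and 110 TPM in stage II, 920 and 1015 TPM in stage III, and 45.1 and 92.0 TPM in stage IV. AL929032.1 had 205 and 4.05 TPM in stage I, 4.54 and 4.55 TPM in stage II, 322 and 298 TPM in stage III, and 3.29 and 6.84 TPM in stage IV. Stage I library 1 thus stood near the stage III level and stage I library 2 near the stage II level for all 3 genes.

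The same 3 genes varied together in the embryo set, which the rule did not use. In the knockdown set zgc:172218 and si:dkeyp-20e4.8 did not vary together. si:dkeyp-20e4.8 had 71.6, 78.7 and 243 TPM at 0 hpf, 22.0, 222 and 172 TPM at 2 hpf, 44.0, 21.9 and 119 TPM at 4 hpf, and 19.2, 10.1 and 56.2 TPM at 6 hpf. zgc:172218 had 12.04, 13.0 and 19.7 TPM at 0 hpf, 6.72, 21.2 and 11.99 TPM at 2 hpf, 4.63, 1.12 and 15.2 TPM at 4 hpf, and 2.69, 1.49 and 6.55 TPM at 6 hpf. At each of the 4 times the highest of the 3 libraries was the same for the 3 genes, and at 3 of the 4 times so was the whole order. AL929032.1 had at most 2.28 TPM in the 12 embryo libraries, so its order rests on low values. The highest library was number 2 at 2 hpf and number 3 at the other times. In the knockdown set zgc:172218 had 23.65, 21.98 and 20.42 TPM in pCas13d alone and 20.15, 17.08 and 9.67 TPM in znf281b KD. There si:dkeyp-20e4.8 had 92.23, 76.32 and 109.38 TPM in pCas13d alone and 61.91, 159.55 and 59.62 TPM in znf281b KD. The highest library thus differed between zgc:172218 and si:dkeyp-20e4.8 in both groups. AL929032.1 was too low to be tested there, at 0.61, 0.64 and 0.00 TPM in pCas13d alone and 0.30, 0.32 and 0.00 TPM in znf281b KD. In znf281b KD its highest library was number 2, as for si:dkeyp-20e4.8. Between embryo libraries of 1 time, zgc:172218 and si:dkeyp-20e4.8 differed at least 2.5-fold at 3 and at 4 of the 4 times on TPM plus 1, against 0.282% to 0.894% of the 10292 genes past 5 TPM in stage III.

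**Figure D4:**
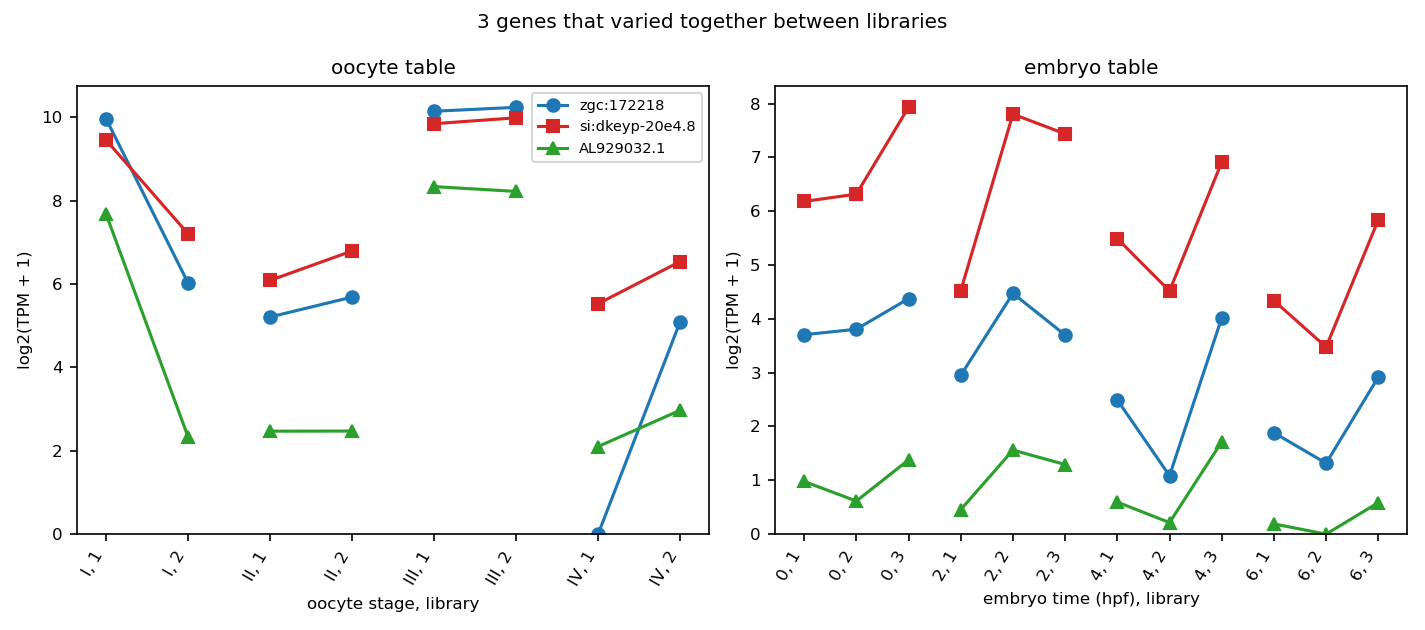
Level as log2(TPM + 1) of zgc:172218 (circles), si:dkeyp-20e4.8 (squares) and AL929032.1 (triangles) in each oocyte library (left) and each embryo library (right), with lines joining libraries of 1 stage or time. Stage I library 1 lay near the stage III level for all 3 genes, and within each embryo time the same library was the highest for all 3.

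The 8 genes that rested on 1 stage III library were split evenly, with 4 high in library 1 and 4 in library 2. si:dkeyp-46h3.5 had 177 and 9.14 TPM in stage III, 0.77 and 0.82 TPM in stage II, and 22.9 and 0.29 TPM in stage IV, with 11.8 and 66.4 TPM in stage I. si:dkeyp-46h3.6, named from the same clone, was also higher in stage III library 1, at 2267 TPM against 747 TPM in library 2. dicp1.3-4, of a multigene family of immunoglobulin-domain proteins, had 0.35 and 15.1 TPM in stage III and 19.5 and 0.88 TPM in stage I, with no more than 0.59 TPM in stages II and IV. Its relative dicp1.16 was high in the same pair of libraries, at 5.70 TPM in stage III library 2 and 9.92 TPM in stage I library 1, with at most 0.87 TPM in the other 6. Reads can be split between copies of this family, so the single values are uncertain.

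BX072554.2 had 0.38 and 31.4 TPM in stage III and 38.5 and 0.44 TPM in stage I, so it was high in the same pair of libraries as dicp1.3-4. gpbar1, which encodes a G protein-coupled receptor for bile acids, had 0.40 and 10.2 TPM in stage III and 5.89 and 4.79 TPM in stage I. creld1b had 11.0 and 0.18 TPM in stage III, and inavaa 15.9 and 5.24 TPM. For these genes a peak in stage III was seen in 1 library and has no replicate.

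Levels in the fertilised egg (0 hpf) were set beside those of stage IV, but the 2 tables were normalised separately and no test was made between them. At 0 hpf 26 of the 39 genes (66.7%) had a mean of at least 1 TPM, against 97.1% of the genes past 5 TPM in stage III. Among the 14 genes also high in stage I, 13 had at least 1 TPM at 0 hpf, among the 17 low in stage I there were 7, and among the 8 resting on 1 library there were 6. At 6 hpf 17 of the 39 genes (43.6%) had a mean of at least 1 TPM, against 88.2% of the genes past 5 TPM in stage III. The 2 sets were not matched for level. The members' median was 14.04 TPM in stage III and 1.38 TPM in stage IV, against 29.9 and 25.6 TPM. The rule itself chose a low stage IV, so smaller shares in the embryo can follow from the choice. In all 12 embryo libraries 8 members stayed under 1 TPM, and the share of the genes past 5 TPM of which this holds was not computed. cyp19a1a was at no more than 0.04 TPM in any embryo library, pdia2 at no more than 0.05 TPM and MFAP4 at no more than 0.05 TPM.

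Some genes that were near 0 in stage IV were clearly present at 0 hpf. UBLCP1 had 23.0, 20.8 and 20.8 TPM at 0 hpf, against 0.23 and 0.00 TPM in stage IV. hnf4b had 17.8, 24.5 and 20.9 TPM at 0 hpf, against 0.28 and 0.54 TPM in stage IV. A 0 hpf mean at least 2.5 times that of stage IV (on means plus 1) was found in 10 of the 39 genes (25.6%), against 17.5% of the genes past 5 TPM. In 14 members every 0 hpf library was above both stage IV libraries, against 40.6% of those genes, and in 13 every 0 hpf library was below both, against 44.5% of them. UBLCP1 and hnf4b were among the 14, and cyp19a1a, pdia2 and MFAP4 among the 13. The rule itself chose genes with a stage IV mean below that of stage III, and the 0 hpf libraries had no part in it. The share of 25.6% beside 17.5% can be raised by that choice alone, so these counts and contrasts are a description.

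In the embryos the test was limma on log2(TPM + 1), which understates changes of low genes, with p-values adjusted over 16328 genes and a call at adjusted p under 0.05 and at least 2-fold. Of the 39 genes 27 were high enough to test (at least 1 TPM in at least 3 libraries), and 12 were not. Between 2 and 0 hpf 0 members were called by limma, with 1 at an unadjusted p under 0.05, where 0.0122% of all genes tested were called. Between 4 and 2 hpf 2 of the 27 rose (7.06% of all genes did) and 3 fell (17.5% of all), where 24.6% of all genes changed either way. Between 6 and 4 hpf 4 rose (13.4% of all) and 8 fell (34.2% of all), where 47.6% changed either way. From the egg to the early gastrula, 6 against 0 hpf, 5 rose (16.2% of all) and 15 fell (51.7% of all), where 67.9% changed either way, with a median log2 difference of -1.15 over the 27 members and -1.06 over all genes tested. The share of members that fell was near that of all genes tested. Scaling by the median of ratios moves the median of all genes between 6 and 0 hpf to 0.15. With it 6 of 25 tested members rose and 6 fell, where 5354 of 16393 genes rose and 3982 fell. Each fall is thus best read against the fall of the median gene.

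The largest fall between 6 and 0 hpf was that of dlx6a (log2 -4.98, SE 0.18, limma adjusted p = 5.86e-11). It had 37.3, 38.5 and 41.75 TPM at 0 hpf, 36.5, 30.5 and 31.3 TPM at 2 hpf, 7.41, 7.68 and 13.4 TPM at 4 hpf, and 0.21, 0.24 and 0.38 TPM at 6 hpf. Libraries of 2 and 4 hpf did not overlap, nor did those of 4 and 6 hpf, and dlx6a was close to 0 at the early gastrula. The log2 difference was -1.73 (SE 0.18, limma adjusted p = 5.55e-06) between 4 and 2 hpf and -3.0 (SE 0.18, limma adjusted p = 1.14e-08) between 6 and 4 hpf. Between 4 and 2 hpf si:dkeyp-46h3.5 fell slightly more (log2 -1.75, SE 0.44, limma adjusted p = 0.00386).

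lpar2a fell to 10.8, 8.23 and 12.5 TPM at 4 hpf, against 22.9, 24.4 and 27.4 TPM at 2 hpf (log2 -1.19, SE 0.15, limma adjusted p = 2.02e-05). nxph1 differed by log2 -0.34 between 4 and 2 hpf, which did not pass, and fell to 0.75, 1.47 and 1.85 TPM at 6 hpf, against 6.84, 5.43 and 6.69 TPM at 4 hpf (log2 -1.66, SE 0.20, limma adjusted p = 5.29e-06). UBLCP1 fell to 5.02, 4.98 and 4.03 TPM at 6 hpf, against 19.8, 10.7 and 23.3 TPM at 4 hpf (log2 -1.68, limma adjusted p = 2.24e-05). BX936317.1 fell to 0.16, 0.18 and 0.12 TPM at 6 hpf, against 6.76, 4.82 and 6.15 TPM at 4 hpf (log2 -2.57, limma adjusted p = 1.02e-08). No library of these genes overlapped between the 2 times named, and the share of all called genes of which this holds was not computed.

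hnf4b was still well detected at the early gastrula. It had 11.4, 11.96 and 9.80 TPM at 6 hpf and 17.8, 24.5 and 20.9 TPM at 0 hpf, a log2 difference of -0.86 that did not reach 2-fold. Under median-of-ratios scaling that difference was 0.51, so its direction against other genes turns with the scaling. hnf4a, at 0.08 TPM in mean at 0 hpf, had 104 TPM in mean at 6 hpf.

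si:dkeyp-46h3.5 had 2.02, 4.8 and 4.61 TPM at 6 hpf against 26.9, 72.8 and 66.0 TPM at 0 hpf (log2 -3.49, SE 0.44, limma adjusted p = 5.46e-06). si:ch211-261a10.5 had 0.99, 1.11 and 1.09 TPM at 6 hpf against 7.43, 6.76 and 9.63 TPM at 0 hpf (log2 -2.10, SE 0.32, limma adjusted p = 3.34e-05). zgc:172218 and si:dkeyp-20e4.8 were called lower at 6 than at 0 hpf (log2 -1.92 and -2.26), but with median-of-ratios scaling neither passed (limma adjusted p = 0.321 and 0.394). The call of si:dkeyp-20e4.8 also ended without 6 hpf replicate 1, without 6 hpf replicate 2 and without 0 hpf replicate 3 (limma adjusted p = 0.0644, 0.108 and 0.107).

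Of the 5 genes that rose between 6 and 0 hpf, BX072554.2 and zgc:112332 were the 2 already called higher between 4 and 2 hpf. BX072554.2 had at most 0.23 TPM in the 6 libraries of 0 and 2 hpf, 6.50, 8.68 and 7.95 TPM at 4 hpf, and 9.21, 17.0 and 15.5 TPM at 6 hpf. The log2 difference was 3.08 between 4 and 2 hpf (SE 0.20, limma adjusted p = 7.00e-08) and 3.69 between 6 and 0 hpf (SE 0.20, limma adjusted p = 1.28e-09). zgc:112332 rose in both late intervals, to 4.99, 8.06 and 9.23 TPM at 6 hpf against 0.21, 0.13 and 0.51 TPM at 0 hpf (log2 2.69, SE 0.21, limma adjusted p = 4.74e-08).

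fkbp11, gpbar1 and zgc:194207 rose between 6 and 4 hpf. fkbp11 had 8.28, 8.93 and 8.02 TPM at 6 hpf, against 1.02, 0.53 and 0.43 TPM at 4 hpf (log2 2.52, SE 0.19, limma adjusted p = 7.00e-08). gpbar1 had 4.49, 3.01 and 5.75 TPM at 6 hpf, against 0.00, 0.23 and 0.15 TPM at 4 hpf (log2 2.24, SE 0.18, limma adjusted p = 1.13e-07). zgc:194207, a long non-coding RNA gene, rose to 16.7, 25.7 and 20.6 TPM at 6 hpf, against 1.35, 1.89 and 1.46 TPM at 4 hpf (log2 3.08, SE 0.33, limma adjusted p = 1.89e-06). All 5 rising genes had groups that did not overlap, and the share of all called genes of which this holds was not computed. None of the 14 genes also high in stage I was among the 5. Of those 14 genes 13 were tested, and 11 fell between 6 and 0 hpf, where 51.7% of all genes tested fell. Among the 17 genes low in stage I, 8 were tested, of which 3 rose, where 16.2% of all did, and 2 fell (UBLCP1 and MPC2). Under median-of-ratios scaling 5 of 12 tested genes also high in stage I fell and 0 rose, and of 7 tested genes low in stage I 3 rose and 0 fell. Of all 16393 genes tested with that scaling, 5354 rose and 3982 fell. The difference between the 2 groups was not tested.

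**Figure D5:**
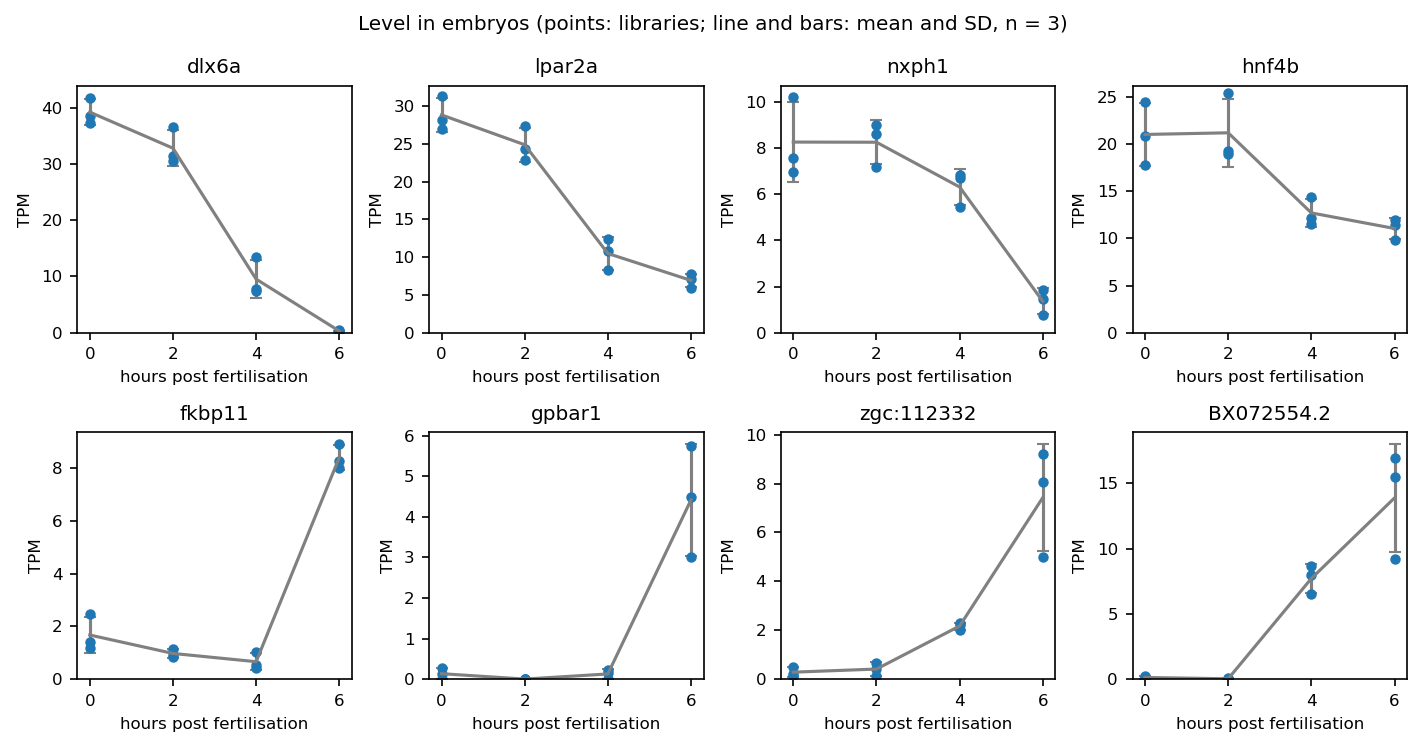
Level (TPM, linear axes from 0) of 8 of the genes in embryos at 0, 2, 4 and 6 hpf, with points for libraries and a line and bars for the mean and SD (n = 3). dlx6a, lpar2a and nxph1 fell, hnf4b stayed above 9 TPM in all 12 libraries, and fkbp11, gpbar1, zgc:112332 and BX072554.2 were highest at 6 hpf.

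In the knockdown set znf281b itself had 149, 147 and 171 TPM in znf281b KD embryos and 219, 269 and 267 TPM in embryos with pCas13d alone (log2 -0.69, limma adjusted p = 0.00991), so its transcript was lower but still abundant. Nothing in the sources used here says whether these libraries came from separate clutches, so the p-values measure only how these samples varied, which could be technical. Of the 39 genes 26 were tested among 15068, and a call needed adjusted p under 0.05 with no fold minimum. Among the members 2 were higher, where 6.32% of all genes were, and 1 was lower, where 3.05% were. That is near the 9.36% of all genes called either way.

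tgfbi was higher, with 2.47, 2.43 and 2.88 TPM in znf281b KD and 0.54, 0.55 and 1.01 TPM in pCas13d alone (log2 1.09, SE 0.20, limma adjusted p = 0.0171). btbd6a was higher, with 1.93, 1.69 and 2.19 TPM in znf281b KD and 0.33, 0.91 and 0.70 TPM in pCas13d alone (log2 0.85, SE 0.21, limma adjusted p = 0.0458). inavaa was lower, with 1.76, 1.33 and 1.14 TPM in znf281b KD and 4.33, 4.38 and 5.37 TPM in pCas13d alone (log2 -1.24, SE 0.20, limma adjusted p = 0.00995). The groups did not overlap for any of the 3 genes, and the share of all called genes of which this holds was not computed. All 3 are at low levels where TPM is least precise. The calls hung on single libraries: leaving out znf281b KD replicate 1, 2 or 3 left 1, 0 and 1 members called, and leaving out pCas13d replicate 1, 2 or 3 left 1, 5 and 2. The calls over all genes moved as well, from 1411 in the main fit. They were 378, 307 and 538 without znf281b KD replicate 1, 2 or 3, and 527, 2315 and 1251 without pCas13d replicate 1, 2 or 3. cyp19a1a was at 0.00 TPM in all 6 knockdown libraries, and hnf4b and dlx6a differed by log2 0.07 and 0.38, with neither past the test.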

How the data were processed

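The authors deposited TPM per gene in 3 tables, 1 each for oocytes, embryos and the knockdown, and every column sums to about 1000000. The submitters' processing notes name STAR 2.7.3a, RSEM and the build danRer11. Which gene annotation was used is not given in the sources used here, and depth is unknown because TPM keeps none. Per the labels, oocyte libraries began from 100 ng and embryo libraries from 500 ng of total RNA, while a different sequencing instrument read the knockdown libraries. Tables were merged on gene identifiers, with names from the embryo table.

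Oocyte values were described without a test. Embryo and knockdown libraries were tested in R 4.3.3 with limma 3.58.1 on log2(TPM + 1), 1 fit per table with a mean trend, for genes of at least 1 TPM in at least 3 libraries, with Benjamini-Hochberg adjustment. The fit was tested on simulated data. Alternatives were the rule's fold and floor, pseudocount, filter, median-of-ratios scaling, mean trend, replicate block and leaving out each library. Same-numbered embryo libraries deviated together between 6 and 4 hpf (correlations 0.32, 0.127 and 0.181), where the numbers were taken to pair the samples. Between 6 and 0 hpf the same correlations were also positive but smaller (0.086, 0.092 and 0.144). They were negative between 2 and 0 hpf (-0.204, -0.199 and -0.103) and between 4 and 2 hpf (-0.141, -0.083 and -0.103). The main fit did not use the replicate numbers, so the p-values given, those between 6 and 4 hpf included, ignore any such pairing. The numbers entered only in the replicate block, which left 12 members called between 6 and 4 hpf, as in the main fit.

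Named genes are the 25 with the highest stage III mean, the 15 with the largest smaller ratio, members on the gene lists, the largest called changes, called knockdown genes, and those nearest the limits. The members and lists were chosen with earlier results of these data known. Neighbouring genes were read from RefSeq for GRCz12tu, which is not the authors' build, so no coordinates or sequences are given.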

Additional observations from a re-analysis of the deposited data

How the results depend on the processing

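The number of genes meeting the rule was 70 at 2 times, 19 at 4 times and 65 with a floor of 1 TPM, and between 39 and 60 with 1 library of stages II, III or IV left out (60 without stage IV replicate 1). With 1 library left out, the log2 smaller ratio ranged from -1.01 to 2.33 for creld1b, -0.31 to 5.71 for si:dkeyp-46h3.5 and -1.11 to 2.69 for CR855337.1, lowest without stage III replicate 1. It ranged from -0.35 to 2.64 for gpbar1, -1.61 to 3.63 for BX072554.2, -0.0780 to 3.502 for dicp1.3-4 and -0.86 to 2.43 for BX649276.1, lowest without stage III replicate 2. Members called between 4 and 2 hpf were 8 with a pseudocount of 0.1 TPM, and those called between 6 and 0 hpf were 12 with a filter at 5 TPM, where fewer genes are tested, and 12 with median-of-ratios scaling. Under that scaling the log2 difference turned to 0.11 for BX936317.1 (4 and 2 hpf), 0.26 for lpar2a (6 and 4 hpf), and 0.51 for hnf4b, 0.0163 for sulf2b and 0.75 for CABZ01057488.1 (6 and 0 hpf), and the split between higher and lower was 6 and 4 between 6 and 4 hpf and 2 and 2 between 4 and 2 hpf. Of 16393 genes tested with median-of-ratios scaling, 4523 were higher and 3117 lower between 6 and 4 hpf. Between 4 and 2 hpf these were 1451 and 939. In the knockdown 1 of 15 tested members was called with a filter at 5 TPM, where 1408 of 11194 genes were.

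With 1 library left out, member calls ranged over 0 to 0 (2 and 0 hpf), 5 to 7 (4 and 2 hpf), 10 to 12 (6 and 4 hpf), 17 to 19 (6 and 0 hpf) and 0 to 5 (knockdown). Over all genes tested in the knockdown, calls then ranged from 307 to 2315. The replicate block left the member counts at 0, 5, 12, 20 and 3. With it, btbd6a no longer passed in the knockdown (limma adjusted p = 0.0664) while zgc:112332 did. Same-numbered embryo libraries deviated together most clearly between 6 and 4 hpf, and more weakly between 6 and 0 hpf. Between 2 and 0 hpf and between 4 and 2 hpf they did not. The call of si:dkeyp-46h3.5 between 6 and 4 hpf ended without 6 hpf replicate 1, 4 hpf replicate 2 or 4 hpf replicate 3 (limma adjusted p = 0.0681, 0.0737 and 0.0523). The cause of these changes was not tested. The single-gene test results at adjusted p under 0.05 in the main fit, whatever their fold, numbered 55. Under alternatives 612 values kept their direction and an adjusted p under 0.05, 55 kept only their direction, and 5 turned. The 2-fold minimum was not applied here, so a call lost only by falling under 2-fold counts as kept. Only 2 libraries a stage and an unknown depth limit the oocyte values, most of all under about 5 TPM.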
